A study of Sus scrofa with 6 samples.

Results

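The results concern 10 genes of cholesterol efflux and of the liver X receptor (LXR) pathway, ABCA1, ABCG1, APOE, NR1H3, NR1H2, MYLIP, PLTP, SOAT1, NPC1 and NPC2. They were picked by gene name, each name matched 1 row, and together they are 10 of the 30477 genes listed. Abdominal aorta was taken from male Wuzhishan miniature pigs that had received, for 6 months, either normal chow (NC group, 3 pigs) or a diet rich in fat, cholesterol and fructose (HFCF group, 3 pigs). Each pig gave 1 total RNA library, and the labels name no other treatment or genotype. The HFCF diet changed fat, cholesterol and fructose at the same time, so their effects cannot be told apart. The labels give an age of 3 to 4 months, whereas the methods describe older animals. The study fed the diet to induce atherosclerosis, and the comparison asks how these genes differ in the aortic wall between the diets.

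LXRs are nuclear receptors that bind oxysterols, the oxidised forms of cholesterol, and switch on genes that move cholesterol out of the cell. In a lipid-loaded macrophage of the arterial wall, cholesterol taken up with lipoproteins leaves the lysosome through NPC2 and NPC1 and is either esterified for storage by SOAT1 or pumped to apolipoproteins and HDL by ABCA1 and ABCG1. APOE and PLTP are secreted to accept and remodel lipid outside the cell, and MYLIP, a ubiquitin ligase also called IDOL, marks lipoprotein receptors for destruction.

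Levels are given as FPKM (fragments per kilobase of exon, scaled to the mapped reads of the library), which is per gene length, so levels of different genes can be set side by side. The number of reads behind each value is unknown. Relative depths estimated from the smallest FPKM steps ran from 1 to 1.37 among the NC libraries and from 1.03 to 1.07 among the HFCF libraries. The FPKM sums were 272207 to 287141 in the NC group and 330222 to 338690 in the HFCF group, and 39.9% to 43.9% of genes were listed at 0. A mitochondrial rRNA gene (ENSSSCG00000018061) stood at 0.295 to 0.686 FPKM in the NC group and at 140.7 to 205.7 in the HFCF group, while the other (ENSSSCG00000018063) was at 112.8 to 372.5 and 101.0 to 130.5. The first of these genes separated the libraries by diet and the second did not, and their part in the results was not tested. The aortic origin was visible in the markers of smooth muscle, with a summed level of 18102 to 24795 FPKM in the NC group and 9042 to 15021 in the HFCF group.

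Of the 10 genes, 6 rose in the HFCF group and 0 fell. APOE, PLTP, ABCA1, SOAT1, ABCG1 and NPC2 passed the test, and NR1H3, NR1H2, MYLIP and NPC1 did not. The test was limma's moderated test on log2(FPKM + 0.1) with Benjamini-Hochberg adjustment over 15384 genes, and a gene passed at an adjusted p under 0.05. Among all tested genes 28.9% passed, 22.8% as higher and 6.16% as lower in the HFCF group, so a rise was common in this comparison. The same 6 genes were differentially expressed genes (DEGs) by the thresholds of the study, a ratio of group means above 2 or below 0.5 with an unadjusted p under 0.05, against 25.5% of all tested genes. The values of the groups did not overlap in these 6 genes, against 48.2% of all tested genes. The median log2 fold change of the 10 genes was 1.91, and that of all tested genes was 0.32. Relative to the latter, the 6 genes lay between 1.15 (NPC2) and 5.82 (APOE) higher. Because of the added 0.1, fold changes of weakly expressed genes come out too small.

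**Figure D1:**
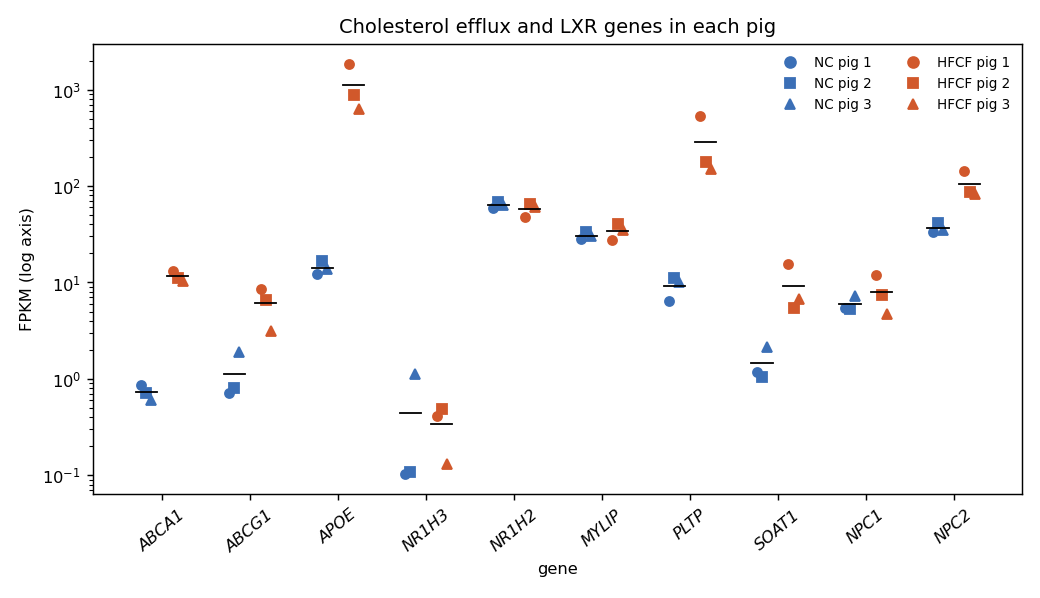
FPKM (log axis) of the 10 genes in each of the 6 pigs, with points for single pigs of the NC and HFCF groups and bars for group means. APOE, PLTP, ABCA1, SOAT1, ABCG1 and NPC2 show a gap between the groups, whereas the points of NR1H3, NR1H2, MYLIP and NPC1 overlap.

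NR1H3 encodes LXRα, the form known from macrophages, liver and fat, and NR1H2 encodes LXRβ, which most tissues express. NR1H3 (ENSSSCG00000013241) was listed at 0.103, 0.107 and 1.13 FPKM in NC pigs 1, 2 and 3 and at 0.411, 0.489 and 0.132 in HFCF pigs 1, 2 and 3. NC pig 3 held the highest value of all and the other 2 NC pigs the lowest, so the groups overlapped. The means were 0.447 ± 0.591 and 0.344 ± 0.187 FPKM (SD, n = 3 each), with a log2 fold change of 0.14 (SE 0.78, 95% interval -1.69 to 1.97, limma adjusted p = 0.906). The interval is wide enough to hold a large change in either direction. The sign of the difference turned with the scaling, to -0.10 after median-ratio scaling and -0.32 after quantile normalization, and without NC pig 3 the difference was 1.004 and did not pass either.

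NR1H2 (ENSSSCG00000003211) was far more abundant per length, at 59.5, 67.9 and 63.0 FPKM in the NC pigs against 48.2, 65.3 and 60.2 in the HFCF pigs. Only HFCF pig 1 lay below all NC pigs. The means were 63.5 ± 4.20 and 57.9 ± 8.77 FPKM, with a log2 fold change of -0.14 (SE 0.16, 95% interval -0.51 to 0.23, limma adjusted p = 0.529). Within each pig, the NR1H3 level was 0.00158 to 0.0179 of the NR1H2 level in the NC group and 0.00220 to 0.00853 in the HFCF group. These ratios overlapped (exact two-sided permutation test, p = 0.8), and NR1H2 had the higher level per length in all 6 pigs.

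The cholesterol pumps are the best known LXR targets. ABCA1 loads phospholipid and cholesterol onto lipid-poor apolipoprotein A-I, and it was low in the chow-fed aorta, at 0.872, 0.718 and 0.598 FPKM. The HFCF pigs stood at 13.3, 11.0 and 10.5 FPKM. The lowest HFCF value was 11.99 times the highest NC value, and the HFCF pigs were close to each other. ABCA1 (ENSSSCG00000005423) went from 0.730 ± 0.137 to 11.6 ± 1.504 FPKM, a ratio of 15.9 and a log2 fold change of 3.82 (SE 0.21, 95% interval 3.32 to 4.33, limma adjusted p = 2.60e-04). Its standard error was the smallest of the 6 genes that rose, and the rank of ABCA1 by fold change was 145 of 15384.

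ABCG1, which passes cholesterol to mature HDL particles, was at 0.707, 0.798 and 1.89 FPKM in the NC pigs and at 8.49, 6.57 and 3.16 in the HFCF pigs. NC pig 3 was the highest of its group and HFCF pig 3 the lowest of its own, so the groups came within a ratio of 1.67 of each other without overlap. The means of ABCG1 (ENSSSCG00000027745) were 1.13 ± 0.658 and 6.07 ± 2.70 FPKM, with a log2 fold change of 2.34 (SE 0.48, 95% interval 1.22 to 3.46, limma adjusted p = 0.0127). Without NC pig 1 the difference was 2.10 and the limma adjusted p = 0.0544, so the call was lost. Fewer of all tested genes passed without that pig as well, 2399 against 4453. In each pig the ratio of ABCG1 to ABCA1 was 0.811, 1.11 and 3.16 on chow against 0.638, 0.596 and 0.302 on the HFCF diet. The ratio was lower in all 3 HFCF pigs (log2 difference -1.54), with p = 0.1 by the exact two-sided permutation test, the smallest value that 3 pigs against 3 allow. With 1 pig left out the difference ran from -1.95, without NC pig 1, to -0.97, without NC pig 3.

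The secreted lipid carriers showed the highest fold changes of the 10 genes. APOE, the ligand that lets lipoproteins bind their receptors and which macrophages secrete during efflux, was at 12.4, 16.8 and 13.7 FPKM in the NC pigs. It reached 1826, 882.3 and 635.1 FPKM in the HFCF pigs, highest in HFCF pig 1. APOE (ENSSSCG00000003088) went from 14.3 ± 2.26 to 1114 ± 628.2 FPKM, a ratio of 78.1 and a log2 fold change of 6.14 (SE 0.37, 95% interval 5.27 to 7.02, limma adjusted p = 3.50e-04). This was rank 14 of all 15384 tested genes. Without HFCF pig 1 the log2 fold change of APOE was 5.72.

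PLTP, the phospholipid transfer protein that remodels HDL, stood at 6.41, 11.1 and 10.1 FPKM on chow and at 535.0, 176.2 and 150.3 FPKM on the HFCF diet. HFCF pig 1 was 3.28 times the mean of the other 2 HFCF pigs, the widest such gap among the 10 genes. The means of PLTP (ENSSSCG00000007435) were 9.19 ± 2.46 and 287.2 ± 215.0 FPKM, with a log2 fold change of 4.74 (SE 0.48, 95% interval 3.60 to 5.88, limma adjusted p = 0.00151). Without HFCF pig 1 it was 4.17 and still passed. The ratio of PLTP to APOE in each pig was 0.519, 0.662 and 0.735 on chow and 0.293, 0.200 and 0.237 on the HFCF diet, and the ratio of APOE to ABCA1 was 14.2, 23.3 and 22.9 against 137.3, 80.1 and 60.7. Neither ratio overlapped between the groups (exact permutation p = 0.1 each, adjusted over 7 ratios 0.117), and APOE was higher relative to both of the other genes in each HFCF pig.

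**Figure D2:**
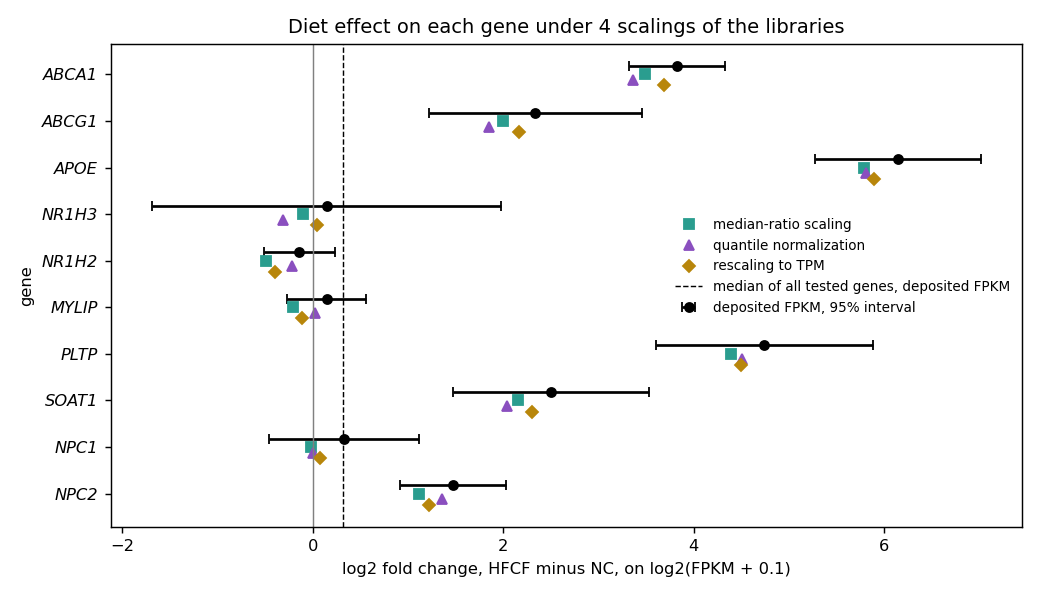
Log2 fold change (HFCF minus NC) of each gene with its 95% interval in deposited FPKM (black), and after median-ratio scaling, quantile normalization and rescaling to TPM. The 6 genes that rose stay above 0 under each scaling, while NR1H3, MYLIP and NPC1 lie next to 0 and take either sign.

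MYLIP, an LXR target whose product lowers lipoprotein uptake, did not pass the test. MYLIP (ENSSSCG00000001063) was at 28.3, 33.1 and 30.3 FPKM in the NC pigs and at 27.4, 40.3 and 34.8 in the HFCF pigs. HFCF pig 1 was the lowest and HFCF pig 2 the highest of all 6. The means were 30.6 ± 2.38 and 34.2 ± 6.49 FPKM, with a log2 fold change of 0.14 (SE 0.18, 95% interval -0.27 to 0.56, limma adjusted p = 0.567), and -0.21 after median-ratio scaling. The ratio of MYLIP to ABCA1 was 32.5, 46.1 and 50.7 on chow and 2.06, 3.66 and 3.33 on the HFCF diet, lower in each HFCF pig (log2 difference -3.85, mean log2 ratio 5.40 ± 0.34 against 1.55 ± 0.44, exact permutation p = 0.1).

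Among the receptors that the MYLIP ligase degrades, VLDLR, the receptor for VLDL, had means of 41.8 ± 10.19 FPKM on chow and 25.8 ± 7.80 FPKM on the HFCF diet (log2 fold change -0.72, limma adjusted p = 0.0946). LRP8, a receptor of the same family, had 1.42 ± 0.209 and 0.826 ± 0.307 FPKM (log2 fold change -0.75, limma adjusted p = 0.109). Neither passed the test, although the values of the groups did not overlap in either gene. After median-ratio scaling both passed, with -1.07 for VLDLR and -1.08 for LRP8.

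SOAT1 (ENSSSCG00000021464), the enzyme that esterifies cholesterol in macrophages and so withholds it from efflux, was at 1.17, 1.05 and 2.14 FPKM in the NC pigs and at 15.4, 5.45 and 6.81 in the HFCF pigs. All HFCF pigs were above all NC pigs, and HFCF pig 1 was 2.51 times the mean of the other 2. The means were 1.45 ± 0.598 and 9.21 ± 5.38 FPKM, with a log2 fold change of 2.50 (SE 0.44, 95% interval 1.47 to 3.53, limma adjusted p = 0.00768). SOAT1 and ABCA1 thus rose in the same tissue, and the ratio of SOAT1 to ABCA1 in each pig was 1.34, 1.46 and 3.58 on chow and 1.16, 0.495 and 0.651 on the HFCF diet. That ratio was lower in the HFCF pigs, although HFCF pig 1 came close to NC pig 1 (log2 difference -1.41, exact permutation p = 0.1), and without NC pig 3 the difference was -0.96.

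NPC2 binds cholesterol inside the lysosome and hands it to NPC1, which sits in the lysosomal membrane and lets it out. NPC2 (ENSSSCG00000002366) was at 33.2, 41.1 and 34.9 FPKM on chow and at 144.2, 85.9 and 82.7 on the HFCF diet. Every HFCF pig lay above every NC pig, highest in HFCF pig 1. The means were 36.4 ± 4.13 and 104.3 ± 34.6 FPKM, with a log2 fold change of 1.47 (SE 0.24, 95% interval 0.92 to 2.03, limma adjusted p = 0.00592).

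NPC1 (ENSSSCG00000003707) did not pass, at 5.41, 5.34 and 7.25 FPKM on chow and 11.9, 7.40 and 4.75 on the HFCF diet. HFCF pig 1 was the highest and HFCF pig 3 the lowest of all 6. The means were 6.001 ± 1.08 and 8.02 ± 3.62 FPKM, with a log2 fold change of 0.33 (SE 0.33, 95% interval -0.46 to 1.12, limma adjusted p = 0.492), next to the median of all genes. The ratio of NPC2 to NPC1 in each pig was 6.14, 7.69 and 4.81 on chow and 12.1, 11.6 and 17.4 on the HFCF diet, higher in each HFCF pig (log2 difference 1.14, exact permutation p = 0.1).

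**Figure D3:**
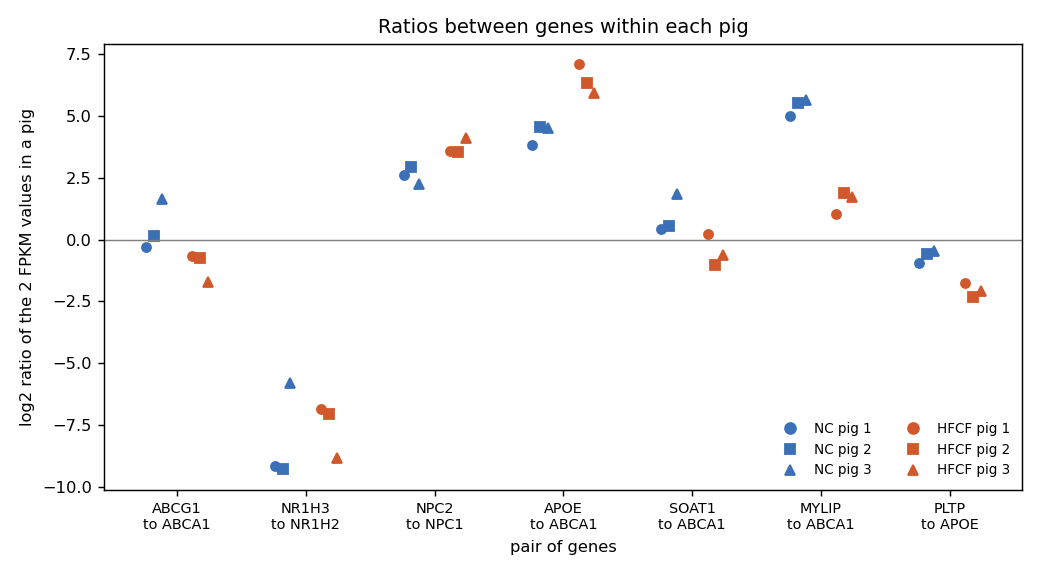
Log2 ratio of the FPKM values of 7 gene pairs within each pig, with points for single NC and HFCF pigs. The groups are apart in 6 pairs and overlap for NR1H3 to NR1H2, and 3 pigs against 3 cannot give an exact p below 0.1.

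Markers of macrophages rose in the same pigs as the 6 genes, while NR1H3, NR1H2, MYLIP and NPC1 did not pass. All 11 tested macrophage markers of 12 rose, and LYZ was listed at 0 in all pigs. Their summed level was 51.1, 48.4 and 60.1 FPKM in the NC pigs against 1823, 796.2 and 704.5 in the HFCF pigs, a ratio of means of 20.8. CD68, a lysosomal protein of macrophages, was at 3.65, 4.11 and 5.67 FPKM on chow and at 261.0, 113.9 and 98.0 on the HFCF diet. Fewer or more cells of a type and less or more RNA per cell cannot be told apart in bulk tissue. Of the other fixed marker lists, 6 of 10 smooth muscle markers fell, against 6.16% of all tested genes, and 1 rose (CALD1), 0 of 8 endothelial markers passed limma's adjusted test (2 at an unadjusted p under 0.05), and 2 of 7 T cell, 1 of 6 B and plasma cell and 1 of 3 neutrophil markers rose, against 22.8% of all tested genes. The summed levels did not overlap between the groups, at 0.825 to 1.06 FPKM on chow and 3.05 to 13.0 on the HFCF diet for T cells, 6.91 to 11.4 and 35.9 to 53.8 for B and plasma cells, and 0.474 to 2.21 and 5.40 to 94.4 for neutrophils. Of the 3 tested neutrophil markers, only CSF3R was without overlap, and the gap in the neutrophil sum rested on it. CSF3R was at 0.166 to 0.380 FPKM on chow and 4.55 to 55.9 on the HFCF diet. S100A12 overlapped, at 0.0939 to 2.02 and 0.853 to 27.3 FPKM, and S100A8 was at 0 in HFCF pig 3. An unadjusted p under 0.05 was reached by 5 of the 7 T cell markers. Of 8 fibroblast markers LUM rose (log2 fold change 1.96, limma adjusted p = 0.00215). Of 6 tested adipocyte markers PNPLA2 fell (-0.82, limma adjusted p = 0.00962), and the summed adipocyte level was 144.4 to 404.6 FPKM in the NC group and 136.8 to 161.7 in the HFCF group. The part of these cells in the results was not tested.

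HFCF pig 1 had the highest value of its group in 7 of the 10 genes, and in 42.5% of all tested genes. That library also had the highest macrophage sum, a neutrophil sum of 94.4 FPKM against 11.9 and 5.40 in the other HFCF pigs, and a red blood cell sum of 2883 against 85.6 and 95.5. Without HFCF pig 1, the 6 genes all still passed, with log2 fold changes of 3.72 for ABCA1, 2.04 for ABCG1, 5.72 for APOE, 4.17 for PLTP, 2.06 for SOAT1 and 1.21 for NPC2.

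Each gene was also set against the summed macrophage markers of the same pig, a measure chosen after the values had been seen. The sum is weighted to abundant markers such as C1QC, at 11.8 to 20.8 FPKM on chow and 272.7 to 770.7 on the HFCF diet. The markers rose unequally, by 1.31 (MRC1) to 5.22 (MSR1) on the log2 scale. CSF1R rose by 2.56, near SOAT1 (2.50) and ABCG1 (2.34) and less than ABCA1 (3.82). Results against single markers could therefore differ, and were not tested. ABCA1 amounted to 1.70%, 1.48% and 0.995% of the marker sum in the NC pigs against 0.729%, 1.38% and 1.48% in the HFCF pigs, which overlap (log2 difference -0.25, exact permutation p = 0.6). PLTP amounted to 12.5%, 22.9% and 16.7% against 29.3%, 22.1% and 21.3%, which also overlap (0.51, exact permutation p = 0.3). APOE was the 1 gene of the 10 that was higher on this scale in all HFCF pigs, at 24.1%, 34.6% and 22.7% against 100.1%, 110.8% and 90.2%.

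ABCG1 amounted to 1.38%, 1.65% and 3.14% of the marker sum on chow and 0.466%, 0.825% and 0.448% on the HFCF diet. SOAT1 amounted to 2.29%, 2.16% and 3.56% against 0.843%, 0.685% and 0.966%. These genes were thus lower relative to this sum in all HFCF pigs, as were NPC2 (log2 difference -2.77), NR1H3 (-3.89), NR1H2 (-4.39), MYLIP (-4.10) and NPC1 (-3.92), each with an exact permutation p = 0.1. A gene whose FPKM stays level, such as NR1H2, takes a lower value on this scale wherever the marker sum is higher.

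**Figure D4:**
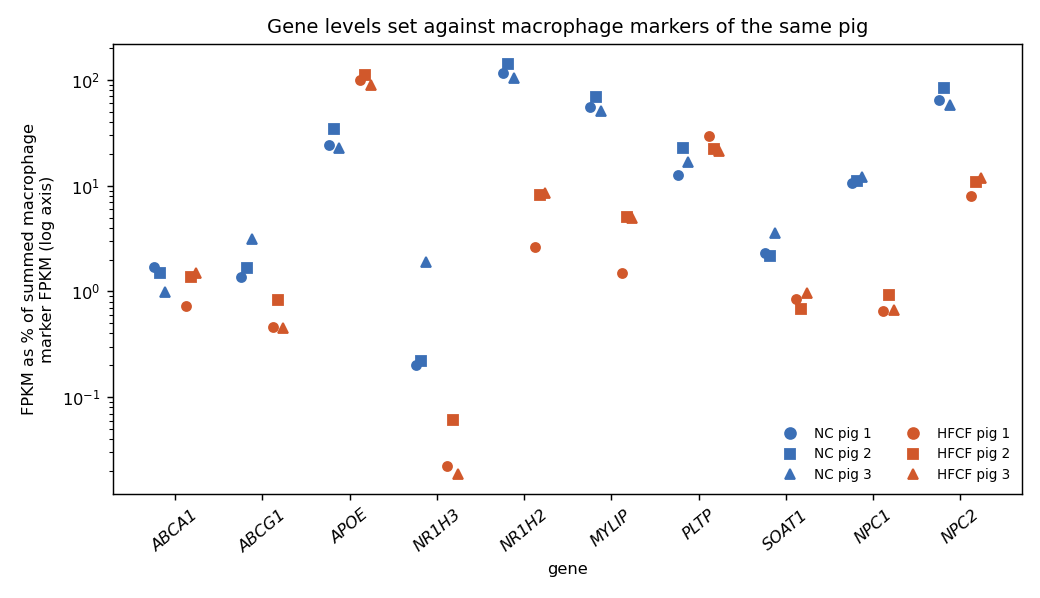
FPKM of each of the 10 genes as a percentage of the summed macrophage marker FPKM of the same pig (log axis), with points for single pigs. ABCA1 and PLTP overlap between the groups, APOE lies higher in all HFCF pigs, and the other 7 genes lie lower.

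The other genes of the pathway were read from lists. Of 15 other LXR targets 8 were tested, of which 2 rose and 2 fell, with a median log2 fold change of 0.48 (50% called against 28.9% of all tested genes). SMPDL3A, a secreted phosphodiesterase, rose from 1.28 ± 0.520 to 31.1 ± 19.8 FPKM (log2 fold change 4.39, SE 0.49, limma adjusted p = 0.00188). FASN, the fatty acid synthase, fell from 49.5 ± 21.1 to 11.7 ± 2.38 FPKM (-1.97, SE 0.36, limma adjusted p = 0.00937). SREBF1, the transcription factor that drives it, fell from 13.6 ± 0.957 to 8.77 ± 1.48 FPKM (-0.64, limma adjusted p = 0.0330), a call lost in 7 of 15 alternative settings with adjusted p up to 0.0983. SCD, a fatty acid desaturase of the same list, had means of 23.5 ± 3.34 and 38.3 ± 22.5 FPKM (0.52, limma adjusted p = 0.402). FASN was at 64.0, 59.2 and 25.4 FPKM in NC pigs 1, 2 and 3, beside 39.1, 59.9 and 1.22 FPKM of ADIPOQ, a marker of fat cells, whose part in the result was not tested.

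LPL, the lipoprotein lipase, did not pass and had a wide NC group, at 8.96, 13.3 and 0.728 FPKM against 33.9, 17.2 and 14.4 (2.14, limma adjusted p = 0.147). With 1 pig left out the difference ran from 0.89, without NC pig 3, to 2.90, without NC pig 2. ABCG5 and ABCG8, the sterol pumps of liver and gut, were below the filter on low values. APOC1, APOC2, APOC4, CETP and CD5L were not matched by name.

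Among 12 tested receptor partners, coregulators and ligand enzymes, 1 rose and 2 fell, which is 25% against 28.9% of all tested genes. CYP27A1, which makes the LXR ligand 27-hydroxycholesterol, was at 9.65, 12.9 and 10.8 FPKM on chow and 19.1, 19.7 and 19.9 on the HFCF diet (log2 fold change 0.82, SE 0.15, limma adjusted p = 0.00988). After median-ratio scaling its adjusted p was 0.0522. NCOR1, a corepressor that silences LXR targets in the absence of ligand, fell from 30.3 ± 1.15 to 20.7 ± 1.19 FPKM (-0.55, limma adjusted p = 0.0182), a call lost in 3 of 15 alternative settings with adjusted p up to 0.0666.

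The cholesteryl ester cycle and intracellular transport list had 20 tested genes, of which 5 rose and 1 fell. That is 30% of the list, close to the 28.9% of all tested genes. LIPA, the lysosomal lipase that frees cholesterol from lipoprotein esters, was at 4.03, 5.69 and 3.79 FPKM on chow and 51.7, 24.6 and 18.7 on the HFCF diet (log2 fold change 2.67, SE 0.38, limma adjusted p = 0.00386). NCEH1, which hydrolyses stored cholesteryl ester, rose from 0.795 ± 0.181 to 4.44 ± 2.60 FPKM (2.20, limma adjusted p = 0.0114). Without NC pig 1 the NCEH1 call was lost (adjusted p = 0.0505). LIPE, another hydrolase of cholesteryl ester, had means of 9.10 ± 7.41 and 2.80 ± 1.13 FPKM (-1.10, limma adjusted p = 0.384). LAMP2, a lysosomal membrane protein, rose by 1.14 (limma adjusted p = 0.00429), and OSBPL5, an oxysterol-binding protein of membrane contact sites, fell by 1.32 (limma adjusted p = 0.00332). TSPO and GRAMD1C also rose, by 0.67 and 1.33 on the log2 scale, but the TSPO call was lost after median-ratio scaling and in TPM (adjusted p up to 0.167). The GRAMD1C call held in 6 of 14 alternative settings (adjusted p up to 0.163).

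The relatives of ABCA1 and ABCG1 gave no calls. Of 9 tested ABC transporters of subfamilies A and G, 0 passed limma's adjusted test and 0 had an unadjusted p under 0.05, with a median of 0.08, against 28.9% of all tested genes that passed. Of 8 tested genes of extracellular acceptors and HDL handling 0 passed, and 1 had an unadjusted p under 0.05. APOA1, the acceptor of cholesterol from ABCA1, had means of 61.2 ± 31.6 and 91.7 ± 55.8 FPKM (log2 fold change 0.59, limma adjusted p = 0.464).

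**Figure D5:**
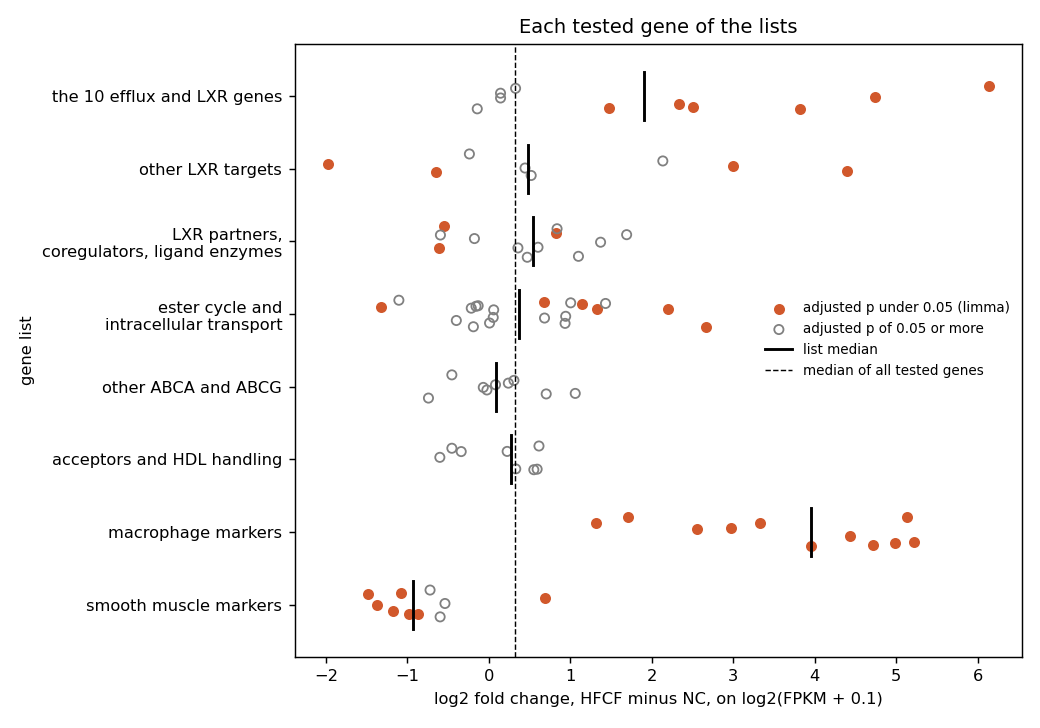
Log2 fold change (HFCF minus NC) of every tested gene in 8 lists, filled where the limma adjusted p was under 0.05, with the list median (bar) and the median of all tested genes (dashed line at 0.32). The 10 efflux and LXR genes and the macrophage markers have medians of 1.91 and 3.96, and the other ABC transporters have none filled.

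Lists were also taken from the annotation deposited with the values, and their shares of called genes are to be read against the 28.9% of all tested genes. The term cholesterol efflux had 13 tested genes, of which 5 rose (38.5%), and all 5 are among the 10 described here (ABCA1, ABCG1, APOE, NPC2 and SOAT1). Reverse cholesterol transport had 9 tested genes, of which 3 rose (33.3%), again all among the 10. Intracellular cholesterol transport had 9 tested genes with 4 that rose (44.4%), and cholesterol transport had 15 with 5 that rose and 1 that fell (40%). CD36, a scavenger receptor for oxidised LDL, was in the latter term at 3.58, 6.07 and 1.26 FPKM against 31.6, 17.6 and 11.1 (log2 fold change 2.55, limma adjusted p = 0.0202), a call lost when NC pig 1, HFCF pig 1 or HFCF pig 2 was left out (adjusted p up to 0.0652).

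Cholesterol homeostasis had 52 tested genes, of which 13 rose and 5 fell, or 34.6% called against 28.9% of all tested genes. CYP7A1, the rate-limiting enzyme of bile acid synthesis that is best known from liver, was at 0.0351, 0.0323 and 0.0320 FPKM on chow and at 5.08, 5.98 and 2.26 on the HFCF diet (log2 fold change 4.98, SE 0.40, limma adjusted p = 7.91e-04). VDR, the vitamin D receptor, and IL18, an inflammatory cytokine, rose by 3.39 and 2.93. All 3 were near the floor on chow, so the size of the change followed the pseudocount, from 2.32 to 6.57 for CYP7A1, 1.5004 to 4.19 for VDR and 1.08 to 3.95 for IL18 between pseudocounts of 1 and 0.01, and each passed with both. SREBF2, the transcription factor of cholesterol synthesis and uptake, was singled out after its values had been seen, and it fell from 32.5 ± 6.48 to 7.08 ± 1.46 FPKM (log2 fold change -2.18, limma adjusted p = 0.00151). The KEGG pathway of cholesterol metabolism had 37 tested genes, of which 12 rose and 7 fell, or 51.4% called against 28.9% of all tested genes.

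The genes nearest in pattern were sought for each of the 10 by the root mean square difference of centred log2 values over the 6 libraries, among 9573 candidates. For APOE the nearest was TREM2, a lipid receptor of macrophages (0.306), followed by CXCL14 (0.318) and CLEC7A (0.339). For PLTP it was SPI1, the macrophage transcription factor PU.1 (0.124), and for ABCA1 it was TMSB10 (0.132), then MRPL57 (0.184) and GPR34 (0.201). TREM2 was at 0.150, 0.185 and 0.340 FPKM on chow and 40.6, 23.7 and 17.3 on the HFCF diet. The order of HFCF pigs was that of APOE, also in CXCL14 and CLEC7A, which the choice by likeness favours.

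For ABCG1 the nearest was IFI44 (0.175) and for SOAT1 it was IFIT1 (0.162), both known as interferon-stimulated genes. For NPC1 it was PSAP (0.126), the precursor of lysosomal saposins, and for NPC2 it was CYP4V2 (0.063). NR1H2 and MYLIP lay closest to HDAC6 (0.036) and STK16 (0.041), and NR1H3, the gene with the most uneven values, had FGFBP3 as its nearest at 0.311. Since the candidates share the same 6 libraries, these distances describe likeness within this set of pigs.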

How the data were processed

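Aortic total RNA libraries of 6 pigs were sequenced as paired-end reads. Per the labels and methods, the authors trimmed reads with cutadapt 1.9, checked them with FastQC, aligned them with HISAT2 and assembled transcripts with StringTie. The FPKM deposited by the authors were used, and a listed value of 0.0001 was taken as 0. FPKM expresses each gene relative to the rest of its library. Depth is unknown, so precision comes from the spread among 3 pigs. Use of strand in counting is not given in the sources used here. The methods and the reference table name different genome builds, so coordinates are left out.

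Groups came from the labels. The test (limma 3.58.1, R 4.3.3, eBayes with trend, diet as factor) was run on log2(FPKM + 0.1) for 15384 genes, those averaging 0.1 FPKM or more over the libraries. The methods name no test for the DEGs. Ratios within pigs were tested by exact two-sided permutation. All 10 genes were named, and from each list up to 6 genes with an adjusted p under 0.05, by size of change. VLDLR, LRP8, LPL, APOA1, LIPE, SCD, ADIPOQ, CD68, CSF1R, MRC1, CALD1 and SREBF2 were named outside this rule, with their values seen. Some genes of the lists are counted but not reported here by name. The members and lists were chosen with earlier results of these data known. In simulated data of 15384 genes for this comparison, 79 of 110 genes changed by 3 on the log2 scale and 81 of 90 changed by 5 were recovered, with 14 false calls, and 0 genes were called with no effect. The simulation changed only 200 genes, in both directions, with noise drawn separately for each gene. In the data 28.9% of tested genes passed, mostly as higher, so recovery and false calls there may differ. Alternatives were other pseudocounts (1 and 0.01), other filters (none, or an average of 1 FPKM), other scalings (median-ratio, quantile, TPM), eBayes without trend, a replicate block and each pig left out. Planned promoter motifs were not analysed here.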

Additional observations from a re-analysis of the deposited data

How the results depend on the processing

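The 6 genes that rose passed in each of 15 alternative settings, except ABCG1 without NC pig 1, which left 5 of the 10. APOE ranged from 5.72 to 6.48, ABCA1 from 2.86 to 3.98, PLTP from 4.17 to 5.09, SOAT1 from 1.96 to 2.80 and NPC2 from 1.12 to 1.62. NR1H3, NR1H2, MYLIP and NPC1 passed in none, and NR1H3 was not tested at a mean FPKM of at least 1. The sign turned for NR1H3 with a pseudocount of 1 (-0.043), median-ratio scaling (-0.10), quantile normalization (-0.32) and single pigs left out (-0.29 to 1.004), for MYLIP with median-ratio scaling (-0.21) and TPM (-0.12), and for NPC1 with median-ratio scaling (-0.022) and single pigs left out (-0.0025 to 0.65). With single pigs left out, the ratio of NR1H3 to NR1H2 ranged from -0.10 to 1.65, and ABCA1 against the macrophage markers from -0.47 to 0.076. The cause was not tested. The median of all tested genes was 0.32 in deposited FPKM, 0.09 in TPM, -0.07 under quantile normalization and -0.0027 with median-ratio scaling.

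Over all tested genes, 4453 passed, 2772 with a replicate block and 2399 to 3562 with 1 pig left out, lowest without NC pig 1, and then 2879 without NC pig 2 and 2936 without HFCF pig 2. The labels give same-numbered pigs no link beyond the number, so the block is not a known pairing of animals. The deviations of same-numbered pigs correlated at 0.02, -0.08 and -0.07, which cannot exclude a pairing with 3 pigs a group. Of the lists, the receptor partners gave 3 calls, 1 under the block and 1 to 4 with 1 pig left out. The other ABC transporters gave 0 and 0 to 1 with 1 pig left out (ABCA6 or ABCA7). The acceptors gave 0, 1 after quantile normalization, 1 with no variance trend and 0 to 1 with 1 pig left out. The MYLIP substrates gave 1, 3 with median-ratio scaling, 2 in TPM and 2 with quantile normalization. Cholesterol homeostasis gave 18, and 11 to 15 with 1 pig left out.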
